A study of Homo sapiens with 8 samples.

Results

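The 9 genes described here are 8 receptor tyrosine kinases linked to neuroblastoma (ALK, RET, NTRK2, NTRK3, KIT, ERBB3, IGF1R and ROR1) and NGFR, out of 19776 genes named on the array. They were chosen by gene symbol, and all 35 probe sets annotated to a single one of these symbols were taken. Expression was measured on 8 arrays from 4 established neuroblastoma lines, SK-N-BE, SK-N-DZ, SH-SY5Y and NB-39-nu, with 4 control and 4 knockdown arrays. Control cells (shCont) received the pLKO.1 lentiviral vector, and knockdown cells (shBMI1-1) a lentiviral vector with 1 short hairpin RNA against BMI1, a Polycomb repressor subunit. All cells had been infected with lentivirus, and were collected between day 8 and day 14 of infection. The arrays were run to find genes whose expression depends on BMI1. Each condition had 1 array per line, so its replicates are 4 different lines. Only 1 hairpin was used, no label tells of a repeat culture within a condition of a line, and the number of arrays limits the precision. The labels give no collection day for single arrays, so control and knockdown of a line may differ in day.

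Receptor tyrosine kinases span the cell membrane, bind a ligand outside the cell and phosphorylate tyrosines inside it, which recruits adaptors and turns on the RAS to ERK and PI3 kinase pathways. In the sympathetic nervous system, from which neuroblastoma arises, ALK, RET and the TRK receptors guide growth, survival and differentiation, and ALK is the kinase most often mutated in this tumour. NB-39-nu is known for amplification of ALK, and SH-SY5Y for an activating ALK mutation. NGFR is no kinase. It binds neurotrophins beside the TRK receptors and belongs to the tumour necrosis factor receptor family.

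BMI1, the target of the hairpin, kept 39.4% of its control signal in SK-N-DZ, 65.0% in SK-N-BE, 24.6% in NB-39-nu and 65.5% in SH-SY5Y. Its mean change was -1.15 ± 0.67 on the log2 scale (SD, n = 4 lines). Though lower in all 4 lines, it did not pass over all genes (limma adjusted p = 0.276). Its probe set also matches a read-through transcript with COMMD3. Median signals of the arrays ran from 69.9 to 79.8. The sympathetic transcription factors PHOX2A (6649 to 11847) and GATA3 (9632 to 25929) were bright on all 8 arrays, while the adrenergic enzyme TH lay between 2.80 and 172. Of the 10 adrenergic markers listed, 8 were analysed and 7 were above the filter. Of 9 Schwann and melanocyte lineage markers, 7 were analysed. SOX10, which defines that lineage, read 7.21 to 42.2, while MITF, the melanocyte factor and the only one above the filter, read 219 to 1100. EDNRB reached 632, PMEL 378 and S100B 266, and the summed signal of the list, which also holds ERBB3, ran from 823 to 1866. Of 6 blood and mast cell markers, 5 were analysed, none was above the filter, and their summed signal ran from 90.9 to 369. In whole cultures, fewer cells with a transcript and less of it per cell cannot be told apart.

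The promoters of IGF1R and ROR1 are printed because, of the 4 receptors bright enough to test at 1 probe set per gene, these moved the same way in all 4 lines by that probe set. Each runs from 250 bases before to 50 bases after the RefSeq transcription start, on the plus strand of GRCh38.p14. The IGF1R promoter is chr15:98648289-98648588 and the ROR1 promoter chr1:63773767-63774066. Capitals mark CG dinucleotides, the sites of DNA methylation. Promoters dense in them form the CpG islands at which Polycomb complexes are known to gather.
IGF1R promoter: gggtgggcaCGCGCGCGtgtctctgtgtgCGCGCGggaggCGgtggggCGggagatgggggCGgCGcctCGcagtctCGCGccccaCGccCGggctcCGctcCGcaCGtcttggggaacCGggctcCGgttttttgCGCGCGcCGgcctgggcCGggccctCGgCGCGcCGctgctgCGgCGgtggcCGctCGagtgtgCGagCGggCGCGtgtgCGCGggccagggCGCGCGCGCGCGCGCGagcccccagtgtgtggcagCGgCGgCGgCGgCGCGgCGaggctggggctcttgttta
ROR1 promoter: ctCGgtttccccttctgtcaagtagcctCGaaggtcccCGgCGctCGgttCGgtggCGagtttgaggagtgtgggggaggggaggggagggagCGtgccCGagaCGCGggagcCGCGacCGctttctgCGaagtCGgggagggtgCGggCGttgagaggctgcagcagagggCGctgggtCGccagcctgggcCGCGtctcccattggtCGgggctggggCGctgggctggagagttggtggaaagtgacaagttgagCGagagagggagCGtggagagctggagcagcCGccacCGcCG
The IGF1R promoter held 55 CG dinucleotides, more than 99.6% of the 35116 promoters in the RefSeq table, and the ROR1 promoter held 29, more than 75.8% of them. The median over all promoters was 14. In all, 7 of the 9 receptor genes had 12 promoters in the table, and the promoter richest in CG held 28 sites for ALK, 41 for RET, 38 for NTRK2, 30 for NTRK3 and 38 for KIT. Receptors that were bright in these lines and receptors that were dim therefore both had promoters with more CG than the median. CACGTG, the site preferred by MYC family factors, reads the same on both strands and overlaps the CG count by its central bases. It was found in 1 of the 12 promoters, an ALK promoter with only 2 CG dinucleotides, against 7.26% of all promoters. These are letters in a window and no measurement of binding.

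ALK, RET, IGF1R and ROR1 passed the filter on dim genes, and the other receptors did not. At 1 probe set per gene, the filter kept genes whose mean log2(signal + 8) over the 8 arrays was above the median of all genes, which corresponds to a signal of 171. Only these 4 of the 9 genes passed it. Of the 35 probe sets, 15 passed the corresponding filter over all probe sets, a signal of 65.7, and 20 did not. None of the 8 KIT values exceeded the median signal of the whole table, 75.04. For NTRK2 3 of 48 values did, for NGFR 2 of 8, for NTRK3 18 of 72 and for ERBB3 8 of 40. For ALK all 16 did, though its SK-N-BE values, from 75.8 to 108, lay close to it, and for RET 22 of 24 and for ROR1 23 of 24 did. Values near or below that median have little precision on these arrays, and they are not read here as absence of the transcript.

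**Figure D1:**
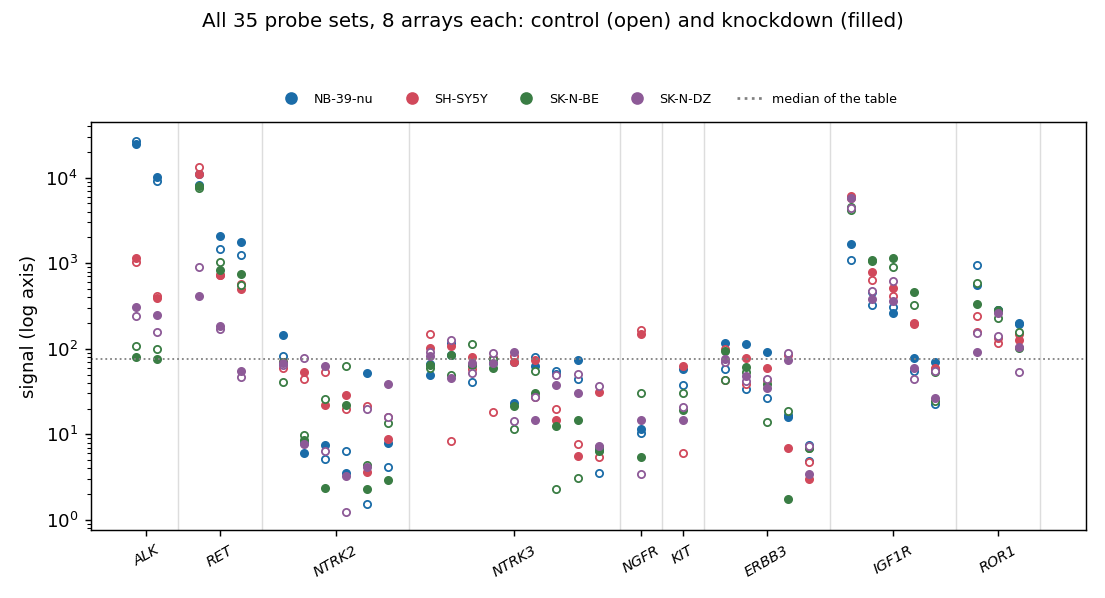
Signal (log axis) of each of the 35 probe sets of the 9 genes on all 8 arrays, with open points for control arrays, filled points for knockdown arrays, colours for cell lines and a dotted line at the table median of 75.04. ALK, RET, IGF1R and ROR1 lie mostly above the line, and KIT lies wholly below it.

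The lines differed in the level of the 4 tested receptors, and none of the 4 changed past the threshold after knockdown. All 4 tested genes differed between lines (limma F test, adjusted p at most 1.2e-04), but so did 79.9% of all genes tested, so this count sets them little apart. Over every probe set, 11 of the 15 tested differed between lines, against 63.0% of all. Of the 24 comparisons between pairs of lines, 17 passed, against 48.9% over all genes. The spread in these tests is that of the knockdown change between lines, since the control and knockdown arrays of a line stand together for it.

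ALK, the receptor for the ligand ALKAL2, had the widest range of the tested receptors. Its brighter probe set read 27056 in the control and 24530 in the knockdown array of NB-39-nu, 1044 and 1157 in SH-SY5Y, then 244 and 306 in SK-N-DZ and last 108 and 80.0 in SK-N-BE. No line overlapped another, and the order was NB-39-nu, SH-SY5Y, SK-N-DZ and SK-N-BE. NB-39-nu exceeded SH-SY5Y by 4.54 on the log2 scale (SE 0.21; limma adjusted p = 1.7e-06), a 23.3-fold difference. SK-N-DZ also exceeded SK-N-BE (limma adjusted p = 5.9e-04), where ALK was too near the table median for a precise fold. ALK passed the filter through NB-39-nu and SH-SY5Y, where it is high. The other ALK probe set gave the same order, from 9119 and 10208 in NB-39-nu to 98.5 and 75.8 in SK-N-BE. Across the 8 arrays, which are 4 lines with 2 arrays each, the levels of the 2 probe sets had a Pearson r of 0.991.

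RET, which binds GDNF family ligands through GFRA co-receptors, was high in 3 lines and low in SK-N-DZ. Its brightest probe set read, control before knockdown, 13174 and 11068 in SH-SY5Y, 8193 and 11070 in NB-39-nu, 7664 and 8028 in SK-N-BE, but 902 and 416 in SK-N-DZ. SK-N-DZ was below each other line, by 3.66 (SE 0.30) on the log2 scale from SK-N-BE, the nearest (limma adjusted p = 3.0e-05). The other 3 lines did not differ from each other past the threshold (limma adjusted p from 0.116 to 0.467), and NB-39-nu and SH-SY5Y overlapped. The remaining RET probe sets, whose suffix marks possible cross-hybridization, also had their lowest values in SK-N-DZ, at 169 and 182 and at 47.2 and 54.3. They placed NB-39-nu highest, unlike the brightest probe set, with 1463 and 2060 against 735 and 720 in SH-SY5Y for the first of them.

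IGF1R, the receptor for insulin-like growth factors, was lowest in NB-39-nu. Its brightest probe set read 1083 and 1695 there, 4447 and 5716 in SK-N-DZ, 4163 and 4539 in SK-N-BE, but 5751 and 6109 in SH-SY5Y. SK-N-DZ overlapped SK-N-BE, and no other lines overlapped. NB-39-nu was below each other line, by 3.20-fold from SK-N-BE, the nearest (limma adjusted p = 8.2e-05). The other lines did not differ past the threshold, though SH-SY5Y over SK-N-BE came near it (limma adjusted p = 0.0516). The other IGF1R probe sets above the filter ordered the lines differently. They were highest in SK-N-BE, at 1105 and 1062, 911 and 1146, and 322 and 457, and NB-39-nu was not lowest in all of them. The first read 323 and 455 in NB-39-nu and 472 and 381 in SK-N-DZ, which overlap, and the last read 55.1 and 77.4 against 44.6 and 59.3. The Pearson r between IGF1R probe sets over the 8 arrays ran from 0.423 to 0.938, and the order of the lines depended on the probe set.

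ROR1, a receptor for WNT5A with a kinase domain of little activity, was highest in NB-39-nu and lowest in SK-N-DZ by its brightest probe set. That probe set read 153 and 92.3 in SK-N-DZ, 590 and 338 in SK-N-BE, 947 and 558 in NB-39-nu, and 239 and 157 in SH-SY5Y. NB-39-nu exceeded SK-N-BE by 1.62-fold, just past the threshold (limma adjusted p = 0.0485). SK-N-BE exceeded SH-SY5Y by 2.25-fold (limma adjusted p = 0.00501), and SH-SY5Y and SK-N-DZ did not differ past it (limma adjusted p = 0.0549). The other probe sets did not separate the lines in this way. Probe set 211057_at was lowest in SH-SY5Y, at 117 and 135, with NB-39-nu and SK-N-BE overlapping, and in 205805_s_at SK-N-DZ overlapped SK-N-BE. The levels of the 3 ROR1 probe sets had Pearson r from 0.378 to 0.696 with each other over the 8 arrays.

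**Figure D2:**
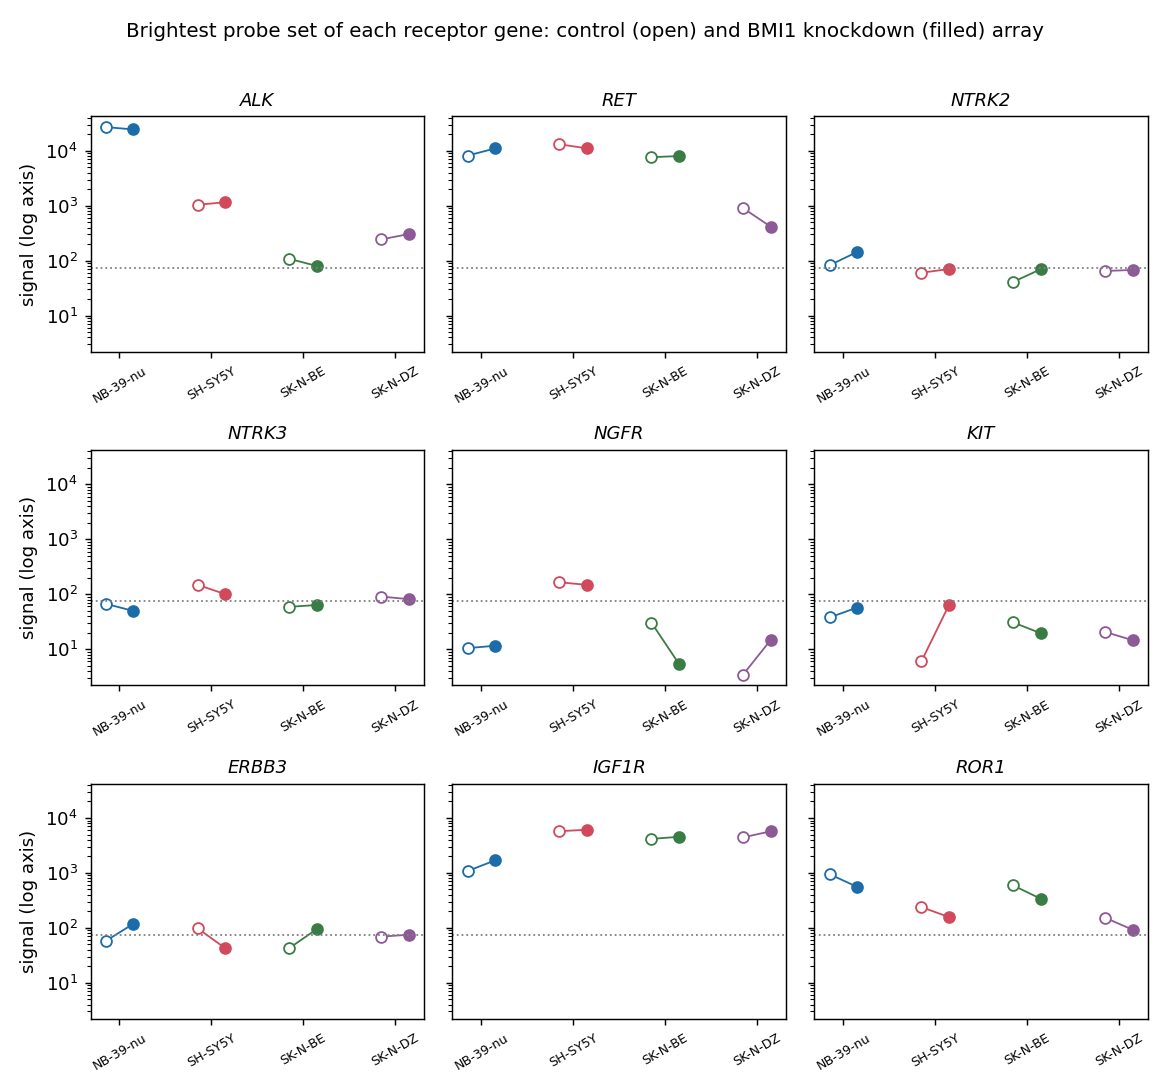
Signal (log axis) of the brightest probe set of each gene in the control array (open) and knockdown array (filled) of each line, joined by a line, with a dotted line at the table median of 75.04. ALK steps down from 27056 in the NB-39-nu control to 108 in the SK-N-BE control, RET is low in SK-N-DZ, IGF1R is low in NB-39-nu, and ROR1 is lower after knockdown in all 4 lines.

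NGFR, the neurotrophin receptor without a kinase domain, stood out in SH-SY5Y alone, at 165 in the control and 148 in the knockdown array. Its other values were 3.46 and 14.7 in SK-N-DZ, 30.6 and 5.44 in SK-N-BE, and 10.4 and 11.6 in NB-39-nu, all under the table median. NGFR has 1 probe set and was under the filter, so the difference was not tested. KIT, the receptor for KITLG, also has 1 probe set, which read 20.6 and 14.6 in SK-N-DZ, 30.7 and 19.5 in SK-N-BE, 37.8 and 57.2 in NB-39-nu, and 6.01 and 63.6 in SH-SY5Y. Its SH-SY5Y values spanned those of every other line.

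NTRK2 and NTRK3 encode TRKB and TRKC, the receptors for BDNF and for neurotrophin 3. The brightest NTRK2 probe set read 64.9 and 67.9 in SK-N-DZ, 41.1 and 70.1 in SK-N-BE, 82.6 and 144 in NB-39-nu, and 60.2 and 70.6 in SH-SY5Y. It did not differ between lines past the threshold (limma F test on every probe set, adjusted p = 0.351). The other 5 NTRK2 probe sets had a median signal of 8.63 and no value above 77.5. The brightest NTRK3 probe set was highest in SH-SY5Y, at 149 and 101, against 90.9 and 81.4 in SK-N-DZ, 59.1 and 63.8 in SK-N-BE, and 67.0 and 49.8 in NB-39-nu, and also did not pass (adjusted p = 0.212). The other 8 NTRK3 probe sets ran from 2.31 to 125. ERBB3, a neuregulin receptor with a weak kinase that signals through partners such as ERBB2, read 69.1 and 75.04 in SK-N-DZ, 42.9 and 95.3 in SK-N-BE, 57.6 and 118 in NB-39-nu, and 98.2 and 42.8 in SH-SY5Y, with all lines overlapping (adjusted p = 0.948). Its other 4 probe sets had a median signal of 34.3.

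None of the 4 tested receptors changed past the threshold after BMI1 knockdown (limma, 1 probe set per gene), where 1 of 9888 genes passed, or 0.0101%. BMI1 itself did not pass either, so not passing is not read here as no change. At an unadjusted p under 0.05, 2 of the 4 were counted, ROR1 and IGF1R, against 9.33% of all genes. Over every probe set, 0 of the 15 passed the threshold, as did 0.00% of all 27337, and 2 of the 15 had an unadjusted p under 0.05, against 7.23%. The median of the 4 mean changes was -0.12 on the log2 scale, beside 0.03 for all genes tested. Changes are log2(signal + 8) of the knockdown array minus the control array of the same line, a scale that understates the change of dim probe sets. Of the 15 probe sets, 10 were higher and 5 lower in the mean of the lines, against 53.6% higher over all. At 1 probe set per gene, IGF1R alone of the 4 was higher in the mean, against 56.5% of all genes, and it was higher in all 4 lines, against 10.6%. ROR1 alone was lower in all 4 lines, against 7.65%.

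**Figure D3:**
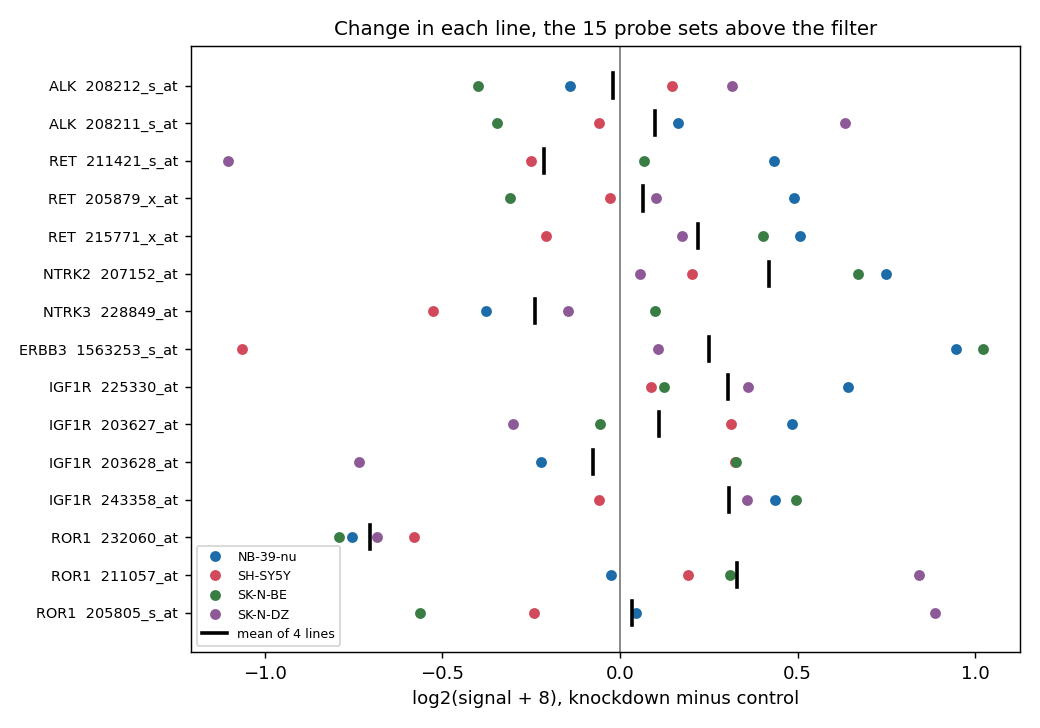
Change in log2(signal + 8), knockdown minus control, in each of the 4 lines (coloured points) and their mean (black bar) for the 15 probe sets above the filter. The 4 points of ROR1 probe set 232060_at lie together between -0.79 and -0.58, while those of most other probe sets spread to both sides of 0.

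For ROR1 the brightest probe set, 232060_at, was lower in all 4 lines by nearly the same amount, -0.68 in SK-N-DZ, -0.79 in SK-N-BE, -0.75 in NB-39-nu and -0.58 in SH-SY5Y. It was the only one of the 15 to be lower in all lines, against 7.28% of all probe sets tested. The mean was -0.70 ± 0.09 (SD, n = 4 lines), with a 95% interval in the limma fit from -1.11 to -0.30. It did not pass over all genes (limma adjusted p = 0.361). The other ROR1 probe sets did not share it. Probe set 211057_at read 141 and 259 in SK-N-DZ, 228 and 284 in SK-N-BE, 287 and 282 in NB-39-nu, and 117 and 135 in SH-SY5Y, for a mean of 0.33 ± 0.37. Probe set 205805_s_at read 53.2 and 105, 155 and 103, 193 and 199, and 149 and 125 in the same order of lines, for a mean of 0.03 ± 0.62. With all 3 averaged the change of ROR1 was -0.11 (limma adjusted p = 0.927), so its direction rests on 1 probe set.

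IGF1R was higher in all 4 lines by its brightest probe set, by 0.36 in SK-N-DZ, 0.12 in SK-N-BE, 0.64 in NB-39-nu and 0.09 in SH-SY5Y. The mean was 0.30 ± 0.26 (SD, n = 4 lines), with a 95% interval from 0.04 to 0.57, and did not pass over all genes (limma adjusted p = 0.501). Without NB-39-nu the mean was 0.19. The NTRK2 probe set 207152_at was also higher in all 4 lines, at 0.42 ± 0.34, but the probe set is dim and did not pass (limma on every probe set, adjusted p = 0.795). These are 2 of the 15 probe sets, against 8.79% higher in all lines over all probe sets. The other IGF1R probe sets above the filter split the lines, with means of 0.11 ± 0.36, -0.08 ± 0.51 and 0.31 ± 0.25.

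ALK and RET had no common direction. ALK was at 0.32 in SK-N-DZ, -0.40 in SK-N-BE, -0.14 in NB-39-nu and 0.15 in SH-SY5Y by its brighter probe set, with a mean of -0.02 ± 0.32 (SD, n = 4 lines) and a 95% interval from -0.36 to 0.32 (limma adjusted p = 0.9749). A change of 2-fold in the mean of these lines lies outside that interval. The sign of so small a mean turned with the setting, to 0.0031 with a pseudocount of the table median and to 0.04 with both probe sets averaged. RET was at -1.10 in SK-N-DZ, 0.07 in SK-N-BE, 0.43 in NB-39-nu and -0.25 in SH-SY5Y, with a mean of -0.21 ± 0.66 and an interval from -0.69 to 0.27 (limma adjusted p = 0.776). The negative mean rests on SK-N-DZ, the line with the least RET, and without that line it was 0.08. The other RET probe sets were at 0.10 and 0.17 in SK-N-DZ. All 3 RET probe sets were higher in NB-39-nu, by 0.43, 0.49 and 0.51, from 1 array pair with no replicate check.

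Within single lines few receptor probe sets moved by 2-fold or more. In NB-39-nu none of the 15 did, where 6.80% of all probe sets were at least 2-fold higher and 4.23% lower. In SH-SY5Y 1 was lower and 0 higher, against 2.70% and 2.92% of all, and in SK-N-BE 1 was higher and 0 lower, against 2.78% and 1.93%. Both were ERBB3 probe set 1563253_s_at, at -1.06 and 1.02 in these lines, with signals from 42.8 to 118. In SK-N-DZ 1 was lower, RET, against 3.92% of all, and none was higher. A change of at least 0.5 on the log2 scale in either direction was seen for 6 of the 15 in SK-N-DZ, 3 in SH-SY5Y, 5 in NB-39-nu and 4 in SK-N-BE, against 23.7%, 22.5%, 35.2% and 20.9% of all probe sets. Each such value compares a single pair of arrays, so no test was made.

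Among ligands, 5 of the 22 listed genes were bright enough to test, and 0 rose and 0 fell after knockdown (limma; 0.0101% of all genes passed). MDK, which encodes the growth factor midkine, was lower in 4 of 4 lines but by little, at -0.16 ± 0.13 (SD, n = 4 lines; limma adjusted p = 0.66). The median of the 5 was 0.19. NRG1, a neuregulin for ERBB3, was the highest of the 5 in the mean at 0.23 ± 0.59, and BDNF, the ligand of TRKB, was at 0.21 ± 0.41. NRTN, a GDNF family ligand of RET, was at 0.03 ± 0.29. The lines differed in all 5 (limma F test), as they did in 79.9% of all genes tested. PTN, which encodes pleiotrophin, read 27589 and 34374 in SK-N-BE, 3305 and 2711 in SH-SY5Y, then 1458 and 1511 in SK-N-DZ and last 271 and 442 in NB-39-nu. BDNF was highest in NB-39-nu, at 674 and 764, and lowest in SH-SY5Y, at 167 and 186. ALKAL2, the ALK ligand, was under the filter and read 476 and 364 in SH-SY5Y but 66.3 or less on every other array. KITLG, also under the filter, read 1204 and 898 in SH-SY5Y and 7.03 and 28.0 in SK-N-BE. WNT5A, the ROR1 ligand, read 1661 and 2238 in NB-39-nu, the line with the highest ROR1 by its brightest probe set, and 86.5 or less on the arrays of the other lines.

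Of 20 co-receptors and partner receptors, 9 were tested and none changed past the threshold (limma). Their median was 0.0010 on the log2 scale. GFRA2, the neurturin co-receptor of RET, read 5084 and 5242 in SK-N-DZ, the line with the lowest RET, and 2995 and 2634 in NB-39-nu. It read 1936 and 1213 in SK-N-BE, and 53.7 and 93.8 in SH-SY5Y. Control RET was highest in SH-SY5Y by the brightest RET probe set only, and in NB-39-nu by the others. LINGO1, a partner of NGFR, was highest of the list after knockdown at 0.41 ± 0.27 (limma adjusted p = 0.593), and BEX3, which binds the NGFR death domain, was at 0.22 ± 0.15, each higher in 4 of 4 lines. EGFR, the epidermal growth factor receptor, was also higher in 4 of 4, at 0.20 ± 0.21, which makes 3 of 9 against 10.6% of all genes. INSR, the insulin receptor, was lowest at -0.16 ± 0.36, with ROR2, the paralogue of ROR1, at -0.09 ± 0.36. ERBB2, the partner of ERBB3, read between 141 and 387. ERBB4, which has an active kinase and was under the filter, read 632 and 703 in SK-N-BE and 329 and 274 in SH-SY5Y against 24.2 or less elsewhere.

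Of 43 other receptor tyrosine kinases, 13 were tested, of which 0 rose and 0 fell (limma), and their median was 0.13. AATK, a membrane kinase of neurons, was at 0.57 ± 0.80 and PDGFRA, a receptor for platelet-derived growth factor, at 0.47 ± 1.40, with 1242 after knockdown against 372 in NB-39-nu but 97.4 against 296 in SK-N-BE. MERTK was lowest at -0.12 ± 0.57, with FGFR3 at -0.08 ± 0.54. Of 27 adaptors and transducers, 19 were tested, of which 0 rose and 0 fell (limma), and their median was 0.09. SHC3, a neuronal adaptor of TRK receptors, was highest at 0.47 ± 0.79, with SH2B1 at 0.29 ± 0.30. The SHC3 mean rests on SK-N-DZ, at 1.62 from dim signals of 9.87 and 46.7, against -0.17 to 0.23 in the other lines. GAB1 was lowest at -0.25 ± 0.52, with GRB10, an adaptor of insulin and IGF receptors, at -0.08 ± 0.92.

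Outputs of the ERK pathway, which receptor tyrosine kinases can turn on, did not change past the threshold after knockdown in any of 15 tested genes of 19 (limma). Their median was 0.21. DUSP4, a phosphatase that inactivates ERK, was highest at 0.68 ± 1.06 (limma adjusted p = 0.579), and was lower in SH-SY5Y (-0.81). Its largest change, 1.60 in SK-N-DZ, came from dim signals of 5.93 and 34.2. DUSP6, the ERK phosphatase of the cytoplasm, was next at 0.43 ± 0.74. The transcription factors ETV4 and ETV1 were lowest, at -0.38 ± 1.06 and -0.17 ± 0.32. The negative ETV4 mean rests on SK-N-DZ, at -1.95 from dim signals of 50.7 and 7.24. ETV4 was at 0.04 in NB-39-nu, -0.02 in SH-SY5Y and 0.42 in SK-N-BE. SPRY1 (0.42 ± 0.30), SPRED2 (0.22 ± 0.12) and ETV5 (0.30 ± 0.29) were higher in 4 of 4 lines, 3 of 15 against 10.6% over all genes.

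SK-N-DZ, the line with the lowest RET and, by its brightest probe set, the lowest ROR1, also had the lowest level of most ERK outputs. In 11 of the 15 tested genes both SK-N-DZ arrays lay below the 6 arrays of the other lines, against 16.7% of all genes, and the same 11 were lower in SK-N-DZ than in each other line (limma contrasts, adjusted p under the threshold; 9.68% of all genes). The same pattern in the other lines held for at most 1 of the 15 genes. ETV5, an ERK-induced transcription factor, read 4.47 and 12.3 in SK-N-DZ and between 2198 and 3947 elsewhere. DUSP4 read 5.93 and 34.2 against 1578 to 11529, and DUSP6 3.64 and 1.17 against 141 to 3599. SPRY4, an inhibitor of receptor signalling, read 26.8 and 11.5 against 234 to 897, and SPRY2 514 and 438 against 1546 to 10311. EGR1, SPRY1 and IER3 did not follow. EGR1 in SK-N-BE (394 and 535) overlapped SK-N-DZ (211 and 452), as did SPRY1 (155 and 272 against 148 and 224). IER3 was lowest in SH-SY5Y (127 and 54.9). CCND1, the cyclin of early cell cycle, was lowest in NB-39-nu. This count was looked at after the values were seen. DUSP4, DUSP5, DUSP6, SPRY4, ETV4 and ETV5 passed the filter through the lines in which they are high. SPRY2, SPRED1, SPRED2, ETV1 and PHLDA1 exceeded its signal of 171 on both SK-N-DZ arrays too. Receptors in SK-N-DZ went both ways. Of 13 other receptor tyrosine kinases tested, FGFR1 and PDGFRA had both SK-N-DZ arrays lowest, and MET and EPHB4 had both highest. Of 9 co-receptors and partner receptors tested, EGFR, ERBB2 and ROR2 were lowest there, and GFRA2 and INSR highest. IGF1R read 4447 and 5716 in SK-N-DZ by its brightest probe set, and ALK was lowest in SK-N-BE. Mesenchymal markers in SK-N-DZ also went both ways. Of 10 listed, 6 were tested, of which 1 had both SK-N-DZ arrays lowest and 1 had both highest. The first was VIM, the intermediate filament vimentin, at 112 and 14.0 against 17250 to 58620 elsewhere. The other was FN1, which encodes the matrix protein fibronectin, at 10579 and 13841 against 47.8 to 5210. The summed signal of the list, of which VIM made up most in the other lines, was 16986 and 20194 in SK-N-DZ against 29420 to 71393. The part of such differences in the ERK outputs, and a link to receptor level, was not tested.

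**Figure D4:**
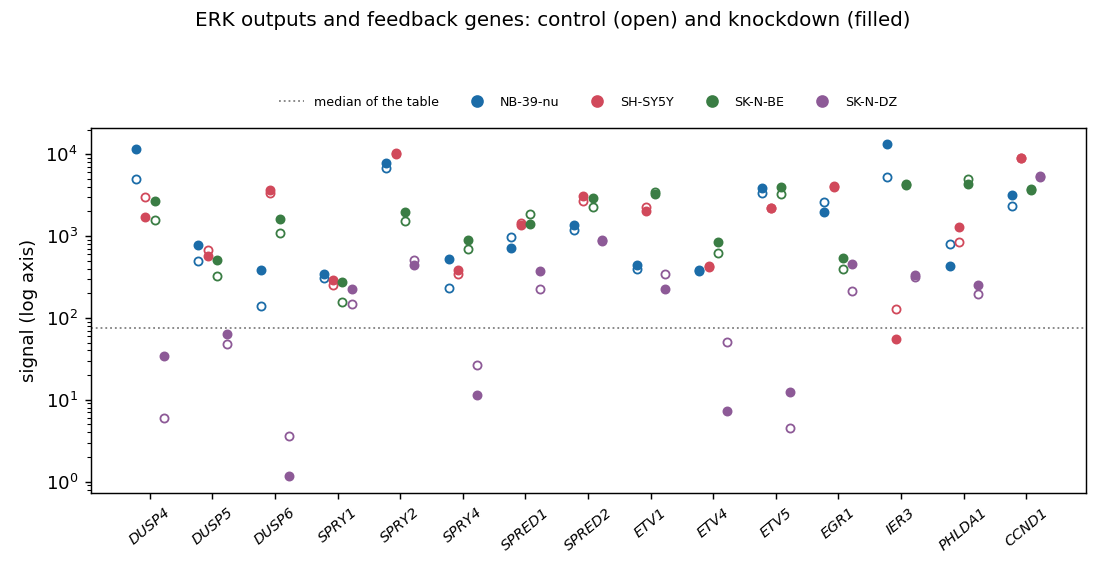
Signal (log axis) of the 15 tested ERK output and feedback genes in the control (open) and knockdown (filled) array of each line, with a dotted line at the table median of 75.04. The SK-N-DZ points are lowest in 11 of the 15 genes, for example ETV5 at 4.47 and 12.3 against 2198 to 3947 in the other lines.

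The genes whose levels were most like those of each tested receptor were found by Pearson r over the 8 arrays, which are 4 lines with 2 arrays each, so high values are common. For RET they were OPTN (r = 0.998), an autophagy receptor, and STX7 (r = 0.994), a syntaxin of endosomes. For ALK they were BCL10 (r = 0.995), a signalling adaptor of lymphocytes, and TRMT1L (r = 0.984). For IGF1R they were ZNF334 (r = 0.996) and C18orf54 (r = 0.994), and for ROR1 ARPIN (r = 0.985), an inhibitor of actin branching, and ZFP36L2 (r = 0.976), which destabilises messenger RNA.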

How the data were processed

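Expression was measured on 8 Affymetrix HG-U133 Plus 2.0 arrays. The deposited values are linear intensities, 1 signal per probe set. GCOS and MAS5 appear in the submitters' processing notes, with no version. Their mean after trimming 2% at each end was 500.0 on every array. Of 54675 probe sets, 41097 carried a single gene symbol in the platform annotation, of which 41043 were updated through RefSeq (GRCh38.p14).

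Signals were taken as log2(signal + 8). The probe set of highest mean stood for a gene, and genes above the median of these means were tested. A model with cell line and knockdown terms was fitted in limma 3.58.1 (R 4.3.3; lmFit, eBayes with trend), with Benjamini-Hochberg adjustment over all features and a threshold of 0.05. The fit was tested on simulated data, where it called 56% of changes of 1 on the log2 scale and 90% of changes of 2. Line is the block, since both arrays of a line share it by label. Over all probe sets a knockdown array had r of 0.934 or more with its own control and 0.886 or less with any other.

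The genes and lists were chosen with earlier results of these data known. Named genes are the receptors with every probe set, BMI1, ligands, co-receptors, up to 2 genes at each end of a list, and the 2 genes most like each tested receptor. Others were chosen after their values were seen. Alternatives changed the pseudocount, filter, normalization, trend, block or gene summary, or left out a line.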

Additional observations from a re-analysis of the deposited data

How the results depend on the processing

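The single knockdown call over genes became 2 with a pseudocount of the table median, with no filter, with a filter at the 75th percentile and with quantile normalization. It became 0 with no trend, with probe sets averaged per gene and with no replicate block, that is, without pairing the arrays by line, and 0 to 2 when a line was left out. Over every probe set the count of 0 became 2 with a pseudocount of the table median or no filter, 1 with the stricter filter or quantile normalization, and 0 to 1 when a line was left out. None of the 4 tested receptors was among the calls over genes, and their lowest adjusted p under any alternative was 0.292 (limma). With the stricter filter fewer genes were tested, and 4322 differed between lines. Without the share of genes tested, that lower count is not read as fewer differences. Only 2 receptors, RET and IGF1R, were still tested, and both differed. The ERK outputs tested and lowest in SK-N-DZ fell to 2. A filter sets which genes are tested and not the order of their arrays, so the fall reflects genes no longer tested. The ERK count was added after the data were seen, and stayed at 11 under the other settings run for it. The mean change of ALK turned to 0.0031 with a pseudocount of the table median, to 0.0393 with the mean of all probe sets, and ranged from -0.1311 to 0.1071 when a line was left out. That of RET turned to 0.0232 with the mean of all probe sets and ranged from -0.4287 to 0.0833. With no filter all 9 receptors were tested and 5 differed between lines, as did 9341 of all 19776 genes. Over the 4 tested receptors, 40 of 46 recomputed means kept their direction. Changing the filter, trend or block cannot move a mean, so those settings count as kept by construction. Of 120 recomputed changes within a line, 116 moved by less than the spread between lines. Leaving out a line kept the pooled spread of the others. Precision was limited by signal over background for NTRK2, NTRK3, NGFR, KIT and ERBB3.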
